A study of Homo sapiens with 4 samples.

Results

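This account covers the genes of enzymes and binding proteins that write, erase and read methyl marks on histones and DNA or remove acetyl groups from histones, compared between CD133+ and CD133- cells of the human hepatocellular carcinoma line Huh7. Members were the probe sets with a single gene symbol that named an HDAC, SIRT, DNMT, TET, KDM, KMT, CBX or SETD gene, or 1 of a short list of Polycomb and lysine methyltransferase genes and UHRF1. The rule found 218 of the 54675 probe sets on the array, which represent 79 of 19775 named genes. Of these 79 genes, 77 code for proteins and 2, KMT2E-AS1 and KDM7A-DT, are non-coding transcripts that share a symbol stem with a member.

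Flow cytometry divided Huh7 cells into a population that carries the surface protein CD133 and a population that does not, with no treatment, genotype or time point given in the labels. The deposited values of each population come from RMA, in log2 units, and from MAS5, as linear signals. Both were taken to come from 1 array per population, since the labels differ only in the algorithm. All differences below are CD133+ minus CD133-, on the RMA log2 scale unless MAS5 is named. With 1 array per population no difference has a replicate check, no test was possible and no p-value is given.

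Acetyl groups on histone tails loosen chromatin, and histone deacetylases and sirtuins remove them. Methyl groups on histone lysines are placed by SET-domain enzymes and DOT1L and removed by KDM demethylases, and depending on the lysine they accompany active genes, Polycomb silencing or heterochromatin. DNA methyltransferases mark CpG sites with help from UHRF1, TET dioxygenases oxidize the mark, and several of these enzymes are abundant in dividing cells and in liver cancer.

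The sort itself was visible on the arrays, and hepatocyte markers were bright on both. PROM1, the gene of CD133, had RMA values of 10.49 in CD133+ and 5.33 in CD133- cells. The 6 hepatocyte and Huh7 markers with a probe set of their own lay between 12.23 and 14.01 on both arrays, with ALB, APOA1 and SERPINA1 differing by -0.05, -0.06 and -0.10 and AFP by 0.03. APOB differed by -0.25 and TTR by 0.55, with MAS5 differences of -0.25 and 0.53. Of 4 blood cell markers, PTPRC lay under the brightness floor explained below. The others exceeded it, with CD133+ and CD133- values of 5.66 and 5.91 for CD14, 5.33 and 5.33 for HBB, and 5.11 and 5.13 for CD3E. Of 6 endothelial and stromal markers, 4 (CDH5, DCN, COL3A1, ACTA2) lay under it. PECAM1 (5.87 and 5.64) and VWF (4.89 and 4.87) exceeded it. In sorted bulk cells, fewer cells that make an RNA and less RNA per cell cannot be told apart.

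Most chromatin enzyme genes, like most genes on the arrays, differed little between the populations, and 1 differed by at least 2-fold. Detected means that the larger of a gene's values on the arrays exceeded a floor of 4.86, the median of such larger values on the array. The floor is a rule of brightness, which 3 blood cell markers also passed, and does not show expression by itself. It was exceeded by 76 of the 79 members, and KDM1B, SIRT4 and 1 further member lay below. HDAC9, a class IIa histone deacetylase, was the only 1 of these 76 at least 2-fold higher in CD133+ cells, against 1.65% of all 12899 detected genes. No member was at least 2-fold lower, against 0.116% of all detected genes. With a smaller limit of 0.5 on the log2 scale, HDAC9 was again the only member higher and 0 members were lower, beside 4.67% and 1.56% of all detected genes.

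Below that limit, more members were lower than higher. Of the 76 detected members, 48 were lower, 25 were higher and 3 (SUV39H1, SIRT7 and KMT2A) had equal values. Over all detected genes, 51.1% were lower and 45.6% higher. The members' median difference was -0.05, and that of all detected genes was -0.01. A total of 63 members differed by less than 0.25 in either direction, a share of 82.9%, beside 78.2% of all detected genes.

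**Figure D1:**
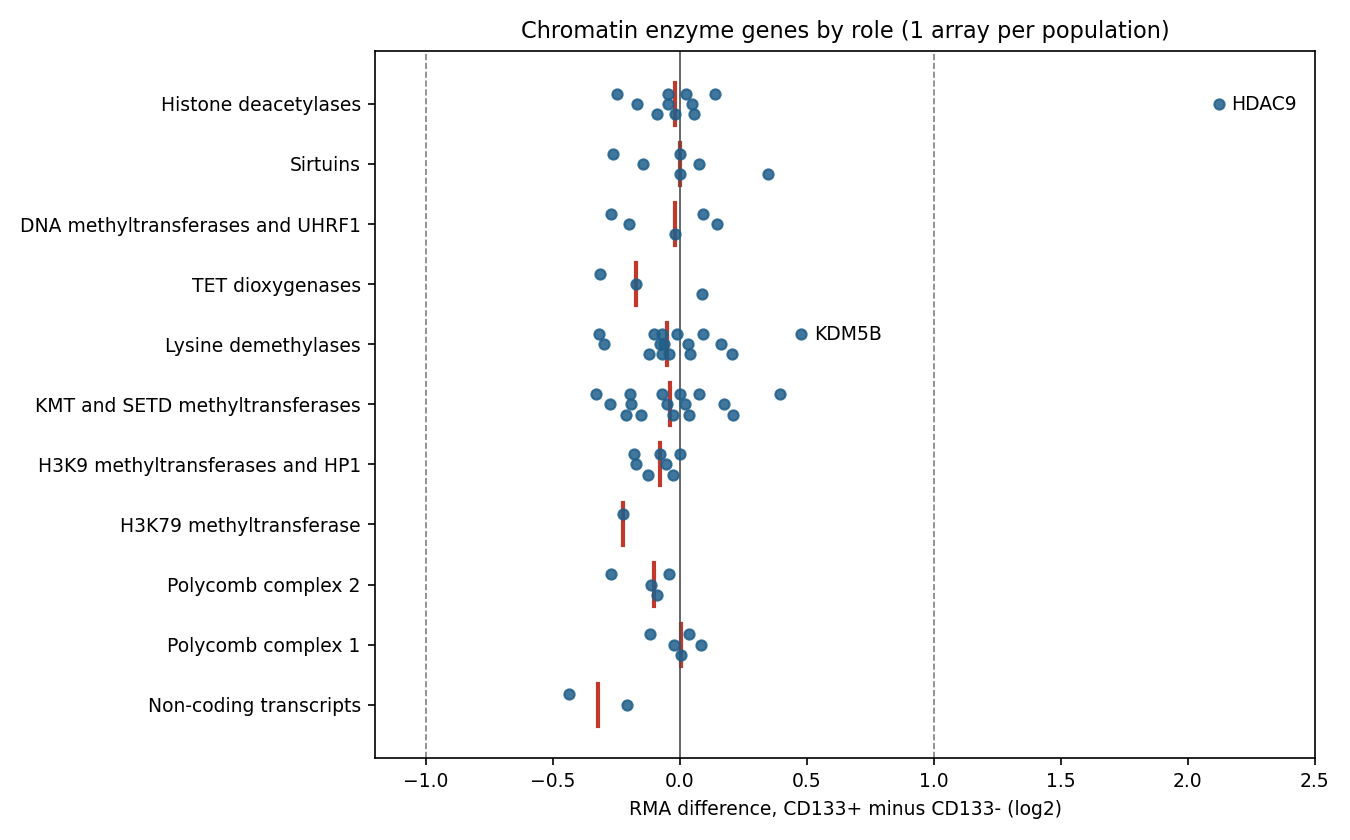
RMA difference of each detected member, CD133+ minus CD133- on the log2 scale, by role, with 1 point per gene, a red bar at each group's median and dashed lines at 2-fold. HDAC9 sits alone at 2.12, KDM5B follows at 0.48, and the other points lie between -0.44 and 0.40.

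Probe sets of the same gene give the only measure of spread here, which may also hold differences between transcripts. The SD is that of a single probe set's RMA difference, estimated from the squared gaps within pairs. It was 0.17 over 155 pairs of member probe sets above the floor, and also 0.17 over 16955 pairs of all named genes. With dim probe sets of detected genes included, the SD was 0.24 over 315 pairs for members and 0.21 for all named genes. Variation from sort to sort or array to array is not part of these values. Lower by more than the SD of 0.17 were 18 of the 76 detected members, a larger share than the 18.5% of all detected genes. Of these 18, 16 were also lower by MAS5, beside 89.6% of all detected genes lower by that much. Higher by more than the same SD were 7 of the 76, a smaller share than the 18.6% of all detected genes. Of these 7, 5 were also higher by MAS5, beside 92% of all detected genes higher by that much. Of 43 members with at least 2 probe sets above the floor, 15 were lower on all of them and 5 were higher on all of them, beside 32.3% and 24.5% of all such genes.

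Histone deacetylases divide into the nuclear class I enzymes, the signal-responsive class IIa, the class IIb enzymes and HDAC11. HDAC9, which binds MEF2 transcription factors and shuttles between nucleus and cytoplasm, had RMA values of 6.32 in CD133+ and 4.20 in CD133- cells. The difference of 2.12 corresponds to 4.36-fold. Because the CD133- value lay below the floor, the safer statement is at least 2.75-fold. Its MAS5 signals were 316 and 68.8, a 4.59-fold difference as measured and at least 3.44-fold against the MAS5 floor of 91.8. In all, 35 detected genes had a larger positive difference.

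HDAC9 has 5 probe sets, and the value above comes from the only 1 above the floor. The other 4 were all dim and all higher in CD133+ cells by RMA, by 0.80, 0.29, 0.22 and 0.20. By MAS5, 3 of these 4 were higher and the last differed by -0.10. The related class IIa genes showed no such difference by RMA. HDAC4 differed by -0.05 (6.16 and 6.20), HDAC5 by 0.02 (7.03 and 7.01) and HDAC7 by 0.06 (5.13 and 5.07). By MAS5, HDAC7 differed by 0.90, with signals of 139 and 74.4.

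The promoter stretches of HDAC9 and KDM5B, the members of largest positive difference, and of UHRF1 and EZH2, slightly lower members known from replicating cells, are shown to set their sequence makeup beside each other. Each is the 250 bases before 1 RefSeq start of the gene, assembly GRCh38.p14, written 5′ to 3′ on the gene's strand. Only 1 start was taken per gene, and other starts, which can differ in sequence, were not examined. Capitals mark a CCAAT box (CCAAT), a GC box (GGGCGG) and an E2F-type motif (TTTCCCGC, TTTGGCGC, TTTCGCGC or TTTGCCGC), searched on both strands, and no match of 1 motif overlapped a match of another in these 4 stretches.
HDAC9, chr7:18495499-18495748 (+ strand): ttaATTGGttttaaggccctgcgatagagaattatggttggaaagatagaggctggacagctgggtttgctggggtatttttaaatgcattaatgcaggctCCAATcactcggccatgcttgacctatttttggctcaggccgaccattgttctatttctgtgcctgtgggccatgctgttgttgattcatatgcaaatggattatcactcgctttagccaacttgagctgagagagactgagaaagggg
KDM5B, chr1:202808422-202808671 (- strand): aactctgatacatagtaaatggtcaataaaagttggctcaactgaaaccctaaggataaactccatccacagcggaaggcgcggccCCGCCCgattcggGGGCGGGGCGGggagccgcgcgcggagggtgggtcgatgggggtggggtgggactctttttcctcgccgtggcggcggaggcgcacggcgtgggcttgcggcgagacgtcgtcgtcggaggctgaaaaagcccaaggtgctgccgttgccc
UHRF1, chr19:4909251-4909500 (+ strand): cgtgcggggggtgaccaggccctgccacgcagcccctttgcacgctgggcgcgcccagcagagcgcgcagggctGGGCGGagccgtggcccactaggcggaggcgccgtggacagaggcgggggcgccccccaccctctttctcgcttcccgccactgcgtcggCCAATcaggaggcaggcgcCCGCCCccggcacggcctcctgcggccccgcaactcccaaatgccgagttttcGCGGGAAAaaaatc
EZH2, chr7:148884292-148884541 (- strand): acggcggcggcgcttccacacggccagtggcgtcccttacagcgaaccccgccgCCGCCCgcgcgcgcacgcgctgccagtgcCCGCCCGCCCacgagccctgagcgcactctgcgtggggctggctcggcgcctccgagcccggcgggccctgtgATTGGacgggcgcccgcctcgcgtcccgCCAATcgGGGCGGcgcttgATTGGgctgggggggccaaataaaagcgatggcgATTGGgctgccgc

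The HDAC9 stretch held 4 CpG dinucleotides and 45.2% G and C, against 27, 28 and 38 CpG in KDM5B, UHRF1 and EZH2. So few were also found in HDAC4 (2), DNMT3B (3) and PCGF2 (1). RefSeq promoters matched 72 members, whose median was 23.5 CpG, beside 21 for 10438 promoters of detected genes and 11 for all 27195 promoters. An E2F-type motif stood in 5 of the 72 (EZH1, KDM1B, SIRT6, SUZ12 and UHRF1), or 6.94%, beside 4.24% for promoters of detected genes and 2.80% for all promoters. A GC box stood in 65.3% of member promoters, beside 65.5% and 42.4%, and a CCAAT box in 34.7%, beside 34.7% and 33.0%. The TATA box (TATAAA) was found in 0 of the 72, beside 5.65% and 11.1%. A match of letters is a description and not a binding site.

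The class I deacetylases are the catalytic subunits of the large corepressor complexes. HDAC1 had RMA values of 10.92 in CD133+ and 10.94 in CD133- cells. HDAC2 had 9.55 and 9.64, and both its probe sets were lower. HDAC3, the enzyme of the NCOR complex, had 8.17 and 8.34, and HDAC8 had 7.17 and 7.22. All 4 were within 0.17 of equal values. Among the others, HDAC6, a cytoplasmic tubulin deacetylase, was lowest of the family at -0.25, but its second probe set above the floor differed by 0.21. HDAC10, a polyamine deacetylase, differed by 0.14 with both probe sets higher, and HDAC11 by 0.05, while its second probe set differed by -0.36, which gives a mean of -0.16.

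**Figure D2:**
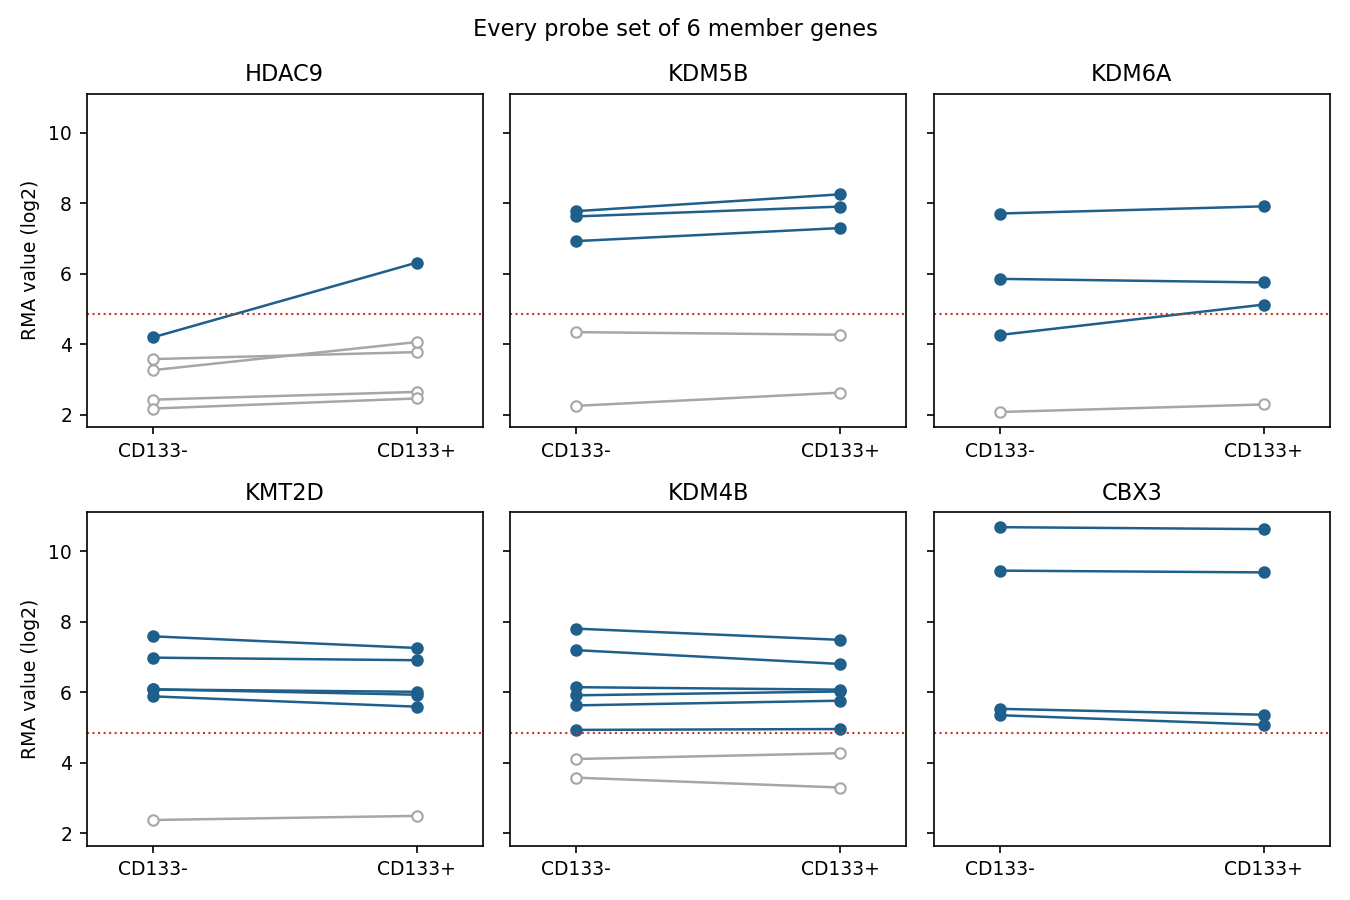
RMA values (log2, vertical axis) of every probe set of HDAC9, KDM5B, KDM6A, KMT2D, KDM4B and CBX3 in CD133- and CD133+ cells, with lines joining the values of 1 probe set, filled points where the brighter value exceeded the floor of 4.86 (dotted) and open points where it did not. HDAC9 crosses the floor on 1 probe set, the 3 bright KDM5B lines slope upward together and the 5 bright KMT2D lines slope downward.

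Sirtuins are deacetylases that consume NAD and reside in nucleus, cytosol or mitochondria. Of 6 detected sirtuins, 2 were higher, 3 were lower and 1 was equal, beside 45.6% of all detected genes higher and 51.1% lower. SIRT1, the main nuclear sirtuin, was lower, with RMA values of 5.79 and 6.06. SIRT2, a mostly cytosolic enzyme, was higher by RMA, with 7.40 and 7.06, and lower by MAS5, with signals of 374 and 417. The mitochondrial SIRT3 differed by -0.00 and the mitochondrial SIRT5 by -0.15, and their other probe sets above the floor ranged from -0.11 to -0.10 and from 0.06 to 0.12.

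Among the DNA methylation genes, the maintenance pair was slightly lower and the de novo enzymes were level or slightly higher. UHRF1, which recruits the maintenance enzyme to newly replicated DNA, had RMA values of 8.67 in CD133+ and 8.94 in CD133- cells and MAS5 signals of 2381 and 2823. DNMT1, that enzyme, had RMA values of 8.77 and 8.97. The de novo methyltransferase DNMT3A had 7.95 and 7.81, while its second probe set above the floor differed by -0.03. DNMT3B had 8.32 and 8.34. DNMT3L, a catalytically inactive cofactor, differed by 0.09 in RMA value but by 2.99 by MAS5, where its signals were 174 and 22.0.

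The TET dioxygenases, which start active DNA demethylation, differed in direction. TET1 had an RMA value of 6.68 in CD133+ cells, a difference of -0.32, and MAS5 signals of 486 and 669. TET2 had RMA values of 5.38 and 5.55. TET3 had 7.45 and 7.36 on its main probe set, and the remaining bright probe sets had differences of -0.28 and 0.12.

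The Polycomb group has an enzyme complex that methylates histone H3 and a second complex that binds that mark and ubiquitinates histone H2A. All 4 members of the first were lower by both algorithms, by RMA from -0.27 to -0.04, beside 51.1% of all detected genes lower by RMA. EZH2, its catalytic subunit in dividing cells, had RMA values of 8.58 in CD133+ and 8.86 in CD133- cells and MAS5 signals of 1725 and 2013. EZH1, the alternative catalytic subunit, had RMA values of 6.47 and 6.58, and all 3 of its probe sets above the floor were lower. Its MAS5 signals of 317 and 434 gave a larger difference of -0.45. The scaffold genes EED and SUZ12 differed by -0.09 and -0.04. In the second complex the median was 0.00 over 5 detected members, from RING1, an E3 ligase, at -0.12 to CBX2, a chromodomain subunit, at 0.08.

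Among lysine demethylases, KDM5B stood highest. KDM5B removes methyl groups from lysine 4 of histone H3. Its probe sets above the floor had RMA values of 8.26 against 7.78, 7.91 against 7.63 and 7.30 against 6.93, all 3 higher in CD133+ cells. Its promoter stretch, shown above, held 3 GC boxes. The main probe set differed by 0.48, or 1.39-fold, and by 1.62-fold in MAS5 signal (1273 and 787). A larger positive difference was seen in 645 of the 12899 detected genes. Its paralog KDM5C, which is X-linked, differed by -0.30 with both probe sets lower. KDM5A differed by -0.08 by RMA and 0.04 by MAS5, and its 4 probe sets above the floor ranged from -0.30 to 0.19.

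The other demethylases were mixed. Of the 13 detected outside the KDM5 family, 5 were higher and 8 lower, beside 45.6% and 51.1% of all detected genes, with a median of -0.04. KDM4B, a demethylase of lysine 9 of histone H3, had RMA values of 7.49 and 7.81, but its 6 probe sets above the floor ranged from -0.39 to 0.13 and averaged -0.09. Its paralog KDM4A had 6.85 and 6.68, with both probe sets higher by RMA and 1 of them lower by MAS5. KDM6A, which removes the Polycomb mark, had 7.92 and 7.71, and its probe sets above the floor ranged from -0.10 to 0.86. The highest of these values came from the dimmest of the 3, which lay at 4.26 in CD133- cells, below the floor. KDM6B, with the same activity, was higher on all 5 probe sets above the floor by RMA, by 0.03 to 0.21, but 3 of the 5 were lower by MAS5, the main one with signals of 328 and 399. The LSD1 gene KDM1A differed by -0.06, and KDM2A was lower on all 3 probe sets, by 0.09 to 0.12.

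The KMT2 methyltransferases and their SETD1 relatives act on lysine 4 of histone H3 at promoters and enhancers. KMT2D, the main enhancer enzyme of this kind, was the lowest protein-coding member, with RMA values of 7.26 in CD133+ and 7.59 in CD133- cells. All 5 of its probe sets above the floor were lower by RMA, by 0.07 to 0.33. By MAS5 the main KMT2D probe set differed by -0.17, and these 5 ranged from -1.26 to 1.32. Both of these extremes had signals under the MAS5 floor of 91.8. Its partner paralog KMT2C had 7.06 and 7.34, and 1 of its 3 probe sets above the floor was higher, by 0.08. KMT2A and KMT2B differed by 0.00 and -0.05, and SETD1A and SETD1B by -0.07 and -0.21. KMT2E, whose SET domain lacks clear activity, was higher on its main probe set, with 7.37 and 7.16, and its 3 probe sets ranged from -0.15 to 0.21.

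The remaining SET-domain genes went both ways. SETD2, the trimethylase of lysine 36 of histone H3, had RMA values of 7.69 and 7.84, with both probe sets above the floor lower. SETD4, a little-studied SET-domain gene, had 6.35 and 5.96 by RMA, but its second probe set above the floor was equal and its MAS5 signals were 209 and 257. SETD5 differed by -0.03 on its main probe set, but another, with RMA values of 7.49 and 7.08, differed by 0.41, and by 0.66 by MAS5. SETD6, which methylates the NF-kappaB subunit RELA, differed by -0.20, but both its probe sets were higher by MAS5, by 0.07 and 0.19. SETD7 differed by -0.19 by both algorithms. KMT5A, KMT5B and KMT5C, which methylate histone H4, differed by 0.07, 0.17 and 0.03, and the 3 KMT5B probe sets ranged from -0.19 to 0.17.

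The heterochromatin genes were level to slightly lower. Of 7 detected, 6 were lower, beside 51.1% of all detected genes, with a median of -0.08. SUV39H1 was equal, at 8.50 on both arrays. EHMT1 (7.36 and 7.54) and EHMT2 (7.01 and 7.19), which form the G9a and GLP heterodimer, were lower on their main probe sets, while the other EHMT2 probe sets above the floor were higher by 0.20 and 0.14, which gives a mean of 0.06 over all 3. SUV39H2 differed by -0.08. The HP1 genes CBX1, CBX3 and CBX5, whose proteins bind methylated lysine 9, differed by -0.03, -0.06 and -0.13. CBX3 was lower on all 4 probe sets, whereas the 5 CBX5 probe sets above the floor ranged from -0.37 to 0.29. DOT1L, the methyltransferase of the core of histone H3, had RMA values of 7.46 and 7.69, and its second probe set above the floor differed by 0.01.

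The non-coding transcripts are named for their neighbours. KMT2E-AS1 had RMA values of 5.55 in CD133+ and 5.98 in CD133- cells, the lowest difference of any member at -0.44. By MAS5 its direction was opposite, with signals of 172 and 69.8. KDM7A-DT had RMA values of 6.28 and 6.48, while KDM7A itself differed by 0.09.

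RMA and MAS5 summarize the same arrays, so their agreement is not independent. The direction was the same for 54 of the 76 detected members, or for 52 of the 74 whose brighter MAS5 signal also exceeded its floor of 91.8, beside 75.5% of all detected genes. Over the 75 members above the MAS5 floor, 3 were at least 2-fold higher (HDAC9, DNMT3L and KMT2E-AS1) and 0 were lower, beside 4.47% and 1.71% of all genes above it. In all 3 the CD133- signal lay below that floor. HDAC9 was the only member at least 2-fold higher by both algorithms.

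**Figure D3:**
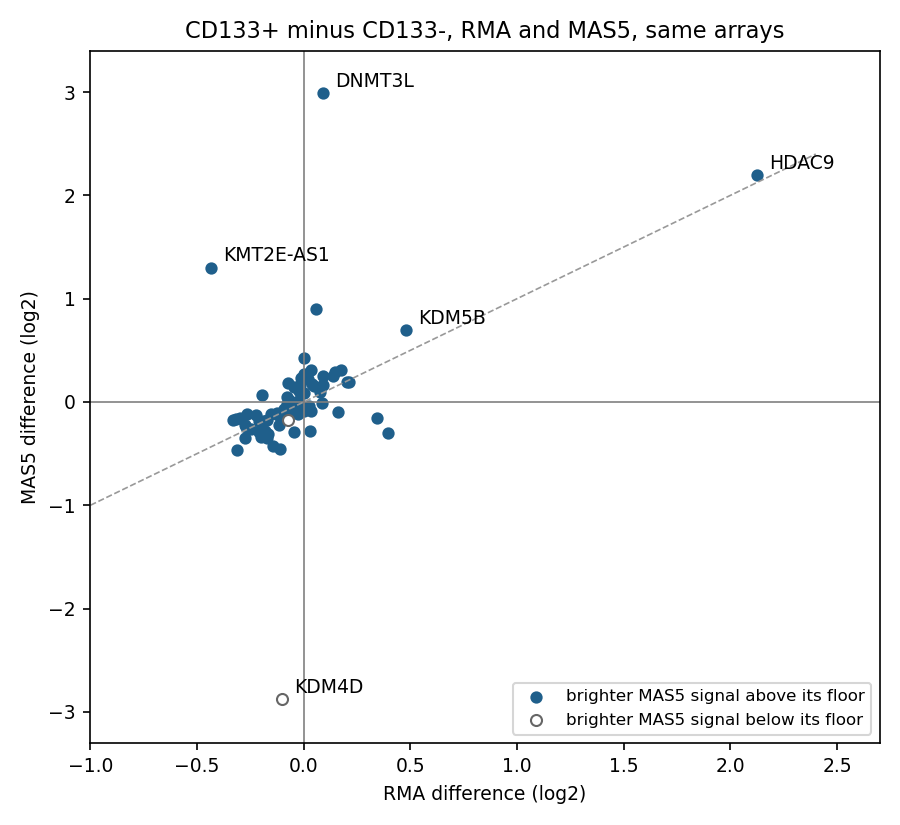
MAS5 difference against RMA difference (both log2, CD133+ minus CD133-) for the 76 detected members, with the dashed line of equality and open points where the brighter MAS5 signal lay below its floor of 91.8. HDAC9 lies near the line at 2.12 and 2.20, whereas DNMT3L, KMT2E-AS1 and KDM4D reach 2.99, 1.30 and -2.87 by MAS5 with RMA differences of 0.09, -0.44 and -0.10.

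Other chromatin regulators, from a list of 77 genes outside the rule, showed similarly small differences. Of 71 detected, 48 were lower and 22 higher, beside 51.1% and 45.6% of all detected genes, with a median of -0.06. By RMA 0 were 2-fold different, beside 1.65% of all detected genes higher and 0.116% lower. Of the 70 that also exceeded the MAS5 floor, 39 were lower and 31 higher by MAS5. Among all 11605 genes above both floors, 5790 were lower and 5815 higher by MAS5. PRMT6, an arginine methyltransferase of histone H3, was the only 1 beyond 0.5, with RMA values of 5.64 in CD133+ and 4.71 in CD133- cells and MAS5 signals of 267 and 135. Its CD133- RMA value lay below the floor. Of 9 detected acetyltransferases, which oppose the deacetylases, 7 were lower by RMA, beside 51.1% of all detected genes, and 5 by MAS5. Their RMA differences ran from KAT2A at -0.24 to KAT5 at 0.08. By MAS5, KAT2A was higher by 0.26 and KAT5 by 1.16. The 12 detected corepressor subunits that carry class I deacetylases had a median of -0.04, from RCOR1 at -0.18 to CHD3 at 0.28. The 14 Polycomb accessory genes had a median of 0.06, with PCGF5 at 0.33, RBBP4 at 0.30 and PHC3 at -0.24. Of 6 readers of methylated DNA and repair genes 5 were lower, beside 51.1% of all detected genes, with UHRF2 at -0.27 and MBD2 at -0.22.

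The small negative differences of UHRF1, DNMT1 and EZH2 were of the size seen in DNA replication genes, but not only there. Members such as KMT2D (-0.33), KDM4B (-0.32), TET1 (-0.32) and SIRT1 (-0.26) had differences of that size. Of all detected genes, 18.5% were lower by more than 0.17. Of 14 replication genes, 12 were lower, beside 51.1% of all detected genes, 1 was higher and 1 was equal. Their median was -0.18, with a range from MCM5 at -0.33 to RRM1 at 0.01. Of 12 mitosis genes, 8 were higher, beside 45.6% of all detected genes, and 4 lower, with a median of 0.12. The 8 housekeeping genes with a probe set had a median of 0.02, from TBP at -0.24 to B2M at 0.22. The part of cell cycle phase in the differences of UHRF1, DNMT1 and EZH2 was not tested.

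**Figure D4:**
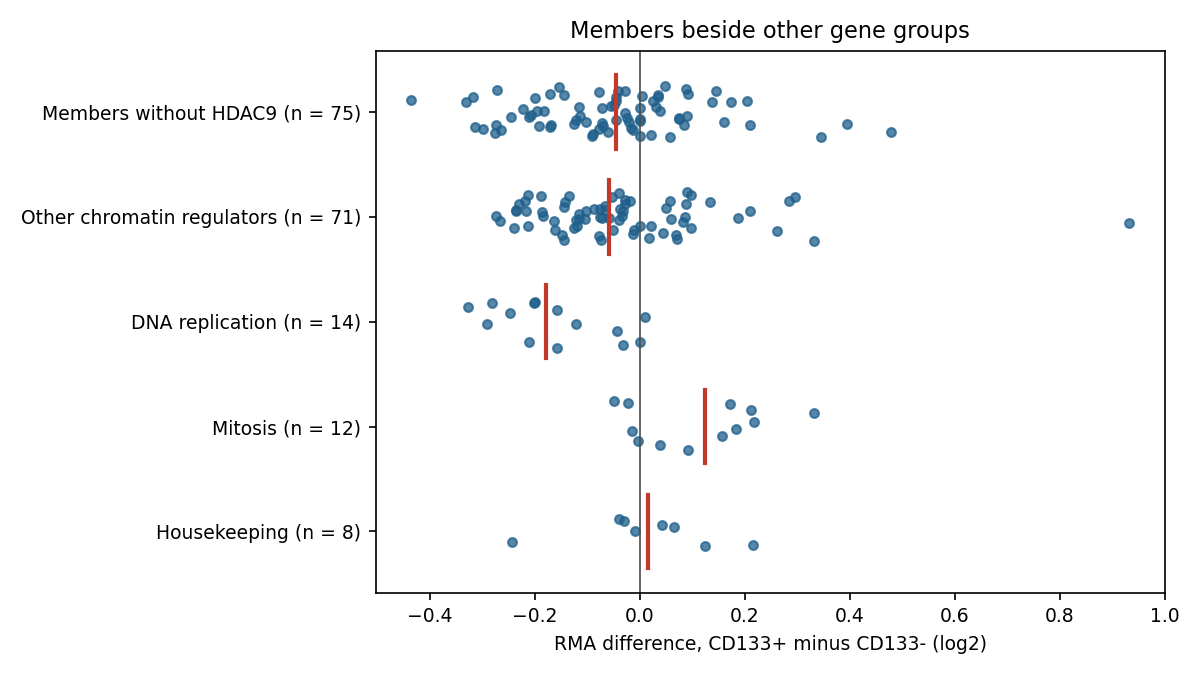
RMA differences (log2, CD133+ minus CD133-) of single detected genes in 5 groups, with 1 point per gene, a red bar at the median and vertical scatter only to separate points. Members without HDAC9 and other chromatin regulators share medians near zero (-0.05 and -0.06), DNA replication genes lie lower at -0.18 and mitosis genes higher at 0.12.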

How the data were processed

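Gene expression was taken as measured on 1 array per population of sorted Huh7 cells, since the labels of its columns differ only in the algorithm. Per the labels, the deposited table gives each population as MAS5 signal intensity, linear, and as RMA log2 values. The submitters' processing notes name MAS5, RMA and GCOS, and their versions were not given in the sources used here. The MAS5 intensity columns carry a global scaling by the authors: the mean after trimming 2% from each end was 500.1 in both deposited columns. RMA makes the distributions of both arrays nearly equal, so a global shift cannot be seen.

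From these values log2 differences were computed with Python 3.11.15 and pandas 2.3.3. The platform annotation gave 41097 probe sets exactly 1 symbol, and 41043 were matched through the gene number to RefSeq names (GRCh38.p14). Each gene is reported through the probe set whose mean RMA value was highest. The number of arrays limits the precision, and no test was possible. The calculation was tested on simulated data, with changes larger than 2-fold in genes well above the floor. Smaller changes and genes as dim as HDAC9 were not covered by that simulation.

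Members and lists were chosen with earlier results of these data known. The text names members at least 2-fold different, the 10 of largest positive and of largest negative difference, the extremes of each role group and a set of core enzymes, and further members for their place in a role group. The alternatives were MAS5, agreement of both algorithms, the mean over probe sets, leaving out probe sets that can match several transcripts (IDs in _s_at, _x_at or _a_at, as for 34 members), no floor, a floor of 7, centring, and, chosen after seeing the data, leaving out the non-coding transcripts. The other lists were hepatocyte, blood, endothelial and stromal, replication, mitosis and housekeeping genes. The level of a Y-linked member is not reported here.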

Additional observations from a re-analysis of the deposited data

How the results depend on the processing

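The count of members at least 2-fold higher was 1 under RMA, 3 by MAS5 and 0 with a floor of RMA 7, which leaves out HDAC9 by its brightness of 6.32. The count higher by at least 0.5 was 1, 5 by MAS5 (HDAC9, KDM5B, DNMT3L, HDAC7 and KMT2E-AS1) and 0 with that floor. Under the other alternatives both counts stayed at 1, and the counts of lower members were 0 under every alternative. At least 2-fold higher were 1.65% of all detected genes by RMA and 4.47% of genes above the MAS5 floor by MAS5. By RMA 4.67% of all detected genes were higher by at least 0.5. No share of all genes was computed for 0.5 by MAS5 or for the remaining alternatives. The median difference ranged from -0.07 by MAS5 to -0.04 after centring. The other chromatin regulators had 0 genes at least 2-fold higher by RMA and 1 by MAS5. The cause of the larger counts by MAS5 was not tested. Over all 76 detected members, 54 had the same direction by MAS5. Of the 39 that the naming rule picked, 32 kept their direction by MAS5, 36 of 39 with the mean over probe sets, 24 of 26 without shared probe sets and 38 of 39 after centring. No paired analysis was possible because each population has 1 array.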
